A study of Arabidopsis thaliana with 14 samples.

Results

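The comparison described here asked which genes and pathways changed in roots when TEX1 was lost from plants that already carried the pho1-7 mutation. It set 2 root RNA libraries of pho1-7 tex1-4 against 2 of pho1-7, so 4 of the 14 libraries of the series, chosen by genotype and by growth in pots. Of 33602 genes counted, 21972 had enough reads to be tested. The study as a whole also sequenced Col-0 and pho1-7 hpr1-5 roots from pots, with 2 libraries each, and Col-0 and tex1-4 roots from plates, with 3 libraries each. All plants were Arabidopsis thaliana of the Col-0 ecotype. Pot-grown plants were 3 weeks old, kept in long days on a granulate with weekly fertilizer, and sequenced single-end; plate-grown roots were 10 days old by their labels and sequenced paired-end. Each genotype compared here carries pho1-7, a T-DNA insertion in the phosphate exporter gene PHO1 that took out its second exon. The double mutant adds tex1-4, a T-DNA allele of TEX1 brought in by crossing, so each genotype is 1 line and what else may differ between the lines cannot be told apart from tex1-4. No treatment was applied.

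TEX1 is a subunit of THO, a complex that travels with RNA polymerase II and, with further proteins in TREX, packages new mRNA for export; in plants it is also known for a role in small RNA production. PHO1 loads phosphate into the root xylem for transport to the shoot. A root that senses too little phosphate switches on a set of genes that scavenge, remobilise and save phosphate, under the transcription factor PHR1, the SPX proteins that restrain it, and PHO2, an enzyme that marks phosphate transporters for degradation. The non-coding RNAs IPS1 and AT4 belong to this set and act by sequestering the microRNA that cleaves PHO2 mRNA.

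Reads on genes came to 60619041 and 63977054 in pho1-7 and to 56068761 and 99111465 in pho1-7 tex1-4. Replicates differed by more than sampling noise (chi-square per degree of freedom 19.5 and 15.1), so each counted as its own sample, though the labels do not say that they came from separate plants, and p-values cover the spread between these libraries. Values below are CPM, counts scaled to library size with TMM factors, which compare samples for 1 gene and not levels between genes. TEX1 was at 12.4 and 13.8 CPM in pho1-7 and at 1.02 and 0.706 CPM in pho1-7 tex1-4, as the labels require (log2 change -3.95, standard error 0.150, adjusted p = 2.47e-05). Every adjusted p here came from edgeR's quasi-likelihood test, adjusted by Benjamini-Hochberg over all genes tested. All 7 lists of root and shoot cell type markers were detected, and none held a member without reads. The 16 green tissue markers summed to 253 and 218 CPM in pho1-7 but to 30.9 and 205 CPM in pho1-7 tex1-4, so replicate 1 of the double mutant stood apart in these shoot genes. Of the 14 tested, 1 fell, and 13 did without pho1-7 tex1-4 replicate 2. Their part in the results was not tested. The counts over all genes, and the list and family counts without a minimum fold, were repeated without each library in turn. Moves of more than 1.5 times are mentioned below. Counts over 2-fold within lists, families and gene classes were not repeated this way. Nor were counts of genes downstream of 3' extensions and of genes shared with plates. In whole roots, fewer cells of a type and less RNA per cell cannot be told apart.

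At an adjusted p under 0.1 and a change over 2-fold, 469 genes rose (2.13% of those tested) and 633 fell (2.88%). Without a minimum fold, 5387 genes were higher (24.5%) and 4815 lower (21.9%), with a median size of 0.40 on the log2 scale, so most of these changes were small. The median over all genes tested was 0.02. These shares are the background for every gene list below. Leaving out pho1-7 replicate 1 lowered the counts without a minimum fold to 3314 higher and 3037 lower, and leaving out pho1-7 tex1-4 replicate 1 lowered the number of higher genes to 3362. With genes required to reach 5 CPM in 2 samples, 115 rose and 255 fell by over 2-fold. Without pho1-7 tex1-4 replicate 1, 423 rose and 643 fell by over 2-fold.

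**Figure D1:**
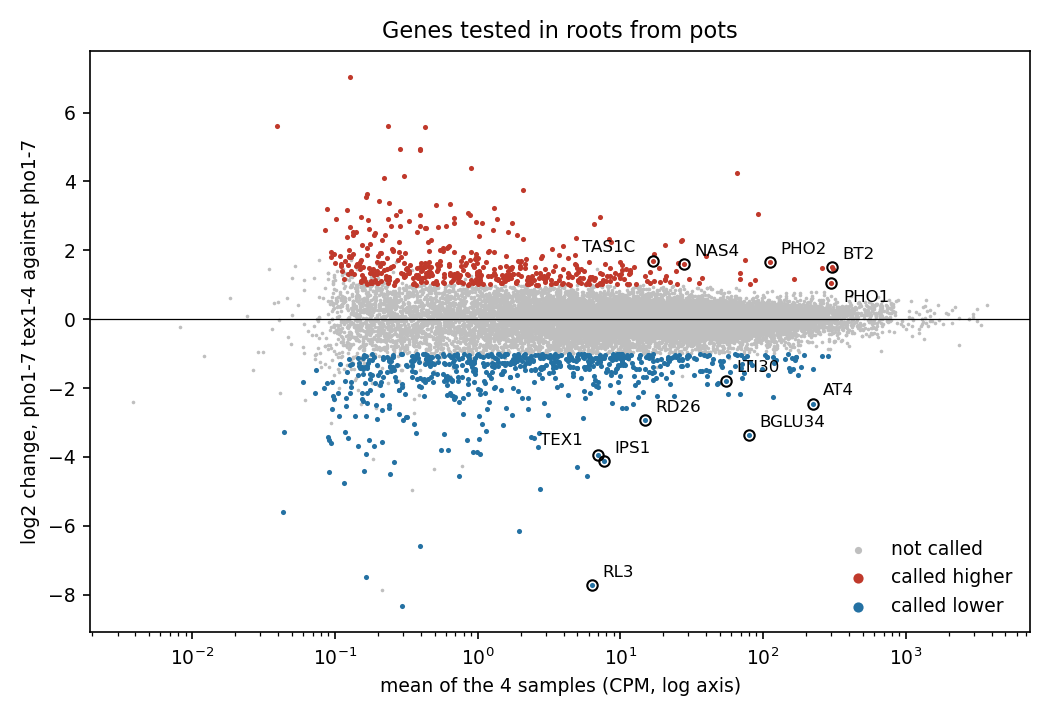
Log2 change in pho1-7 tex1-4 against pho1-7 (vertical axis) for the 21972 genes tested, against the mean of the 4 samples in CPM (horizontal axis, logarithmic). Red points are the 469 genes that rose and blue points the 633 that fell past both thresholds, and open circles mark genes named in the text, such as RL3 at -7.73 and PHO2 at 1.65.

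Phosphate starvation genes fell more often than genes at large, and PHO2, which acts against the response, rose. IPS1 was at 15.9 and 13.0 CPM in pho1-7 and at 0.999 and 0.676 CPM in pho1-7 tex1-4, beside 0.945 and 0.723 CPM in Col-0 (log2 change -4.13, standard error 0.215, adjusted p = 5.00e-05). Both double mutant samples lay far below both pho1-7 samples and on either side of the Col-0 values. AT4, its relative, was at 423 and 333 CPM in pho1-7 and 72.6 and 63.6 CPM in pho1-7 tex1-4, below the 168 and 160.2 CPM of Col-0 (log2 change -2.46, standard error 0.124, adjusted p = 5.00e-05). SPX1, an inhibitor of PHR1 that is itself induced by starvation, was at 55.8 and 50.7 CPM in pho1-7 and 20.5 and 16.8 CPM in pho1-7 tex1-4, where Col-0 had 18.8 and 17.2 CPM (log2 change -1.50, standard error 0.102, adjusted p = 0.000147). Both samples of the double mutant were again close to Col-0 and far from the parent. PHO2 went the other way, from 54.9 and 54.6 CPM in pho1-7 to 167 and 173 CPM in pho1-7 tex1-4 (log2 change 1.65, standard error 0.0607, adjusted p = 2.47e-05). It remained far below the 708 and 709 CPM of Col-0. PHO1 itself, counted over the whole gene, was at 200.1 and 189.7 CPM and rose to 375 and 425 CPM (log2 change 1.06, standard error 0.0909, adjusted p = 0.000338), against 1021 and 956 CPM in Col-0, which still has the second exon.

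Of the 47 list members, 42 were tested, and 18 fell (42.9%, background 21.9%) while 6 rose (14.3%, background 24.5%). By over 2-fold, 10 fell and 3 rose. The list median was -0.13, against 0.02 for all genes tested, and 18 members did not pass. Without pho1-7 replicate 2 only 3 members rose; the number that fell stayed within 1.5 times of 18 without each library in turn. Further members that fell, chosen for mention after their values were seen, covered regulators, phosphatases and lipid enzymes. SPX3 went from 1.90 and 1.54 to 0.333 and 0.404 CPM (-2.18 on the log2 scale), and PHO1;H1, the close relative of PHO1, from 119 and 111 to 47.3 and 47.6 CPM (-1.26). The phosphatase genes PAP17 (-1.39) and PEPC1 (-3.84), the pyrophosphatase gene PS2 (-1.23) and the glycerophosphodiesterase gene GDPD1 (-0.79) also fell. Membrane lipid remodelling genes, which replace phospholipids with galactolipids and sulfolipids, fell by smaller or larger amounts: MGD3 (-2.09), PLDP2 (-1.11), MGD2 (-0.74), SQD1 (-0.65), DGD2 (-0.33) and SQD2 (-0.21). MGD3 was at 11.5 and 6.59 CPM in pho1-7 and 1.93 and 2.23 CPM in pho1-7 tex1-4, with Col-0 at 1.98 and 2.55 CPM. The ribonuclease gene RNS1 rose, from 3.57 and 3.33 to 7.78 and 6.46 CPM (1.06), above Col-0 at 3.61 and 2.83 CPM.

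Other members did not pass the test. The main uptake transporter PHT1;1 had a log2 change of 0.07 (adjusted p = 0.769 from the edgeR test), PHT1;4 one of 0.11 (adjusted p = 0.394) and PHR1 one of -0.07 (adjusted p = 0.325). The secreted phosphatase genes PAP10, PAP12 and PAP26 were at 0.10, -0.01 and 0.03 on the log2 scale and did not pass. Against pho1-7 hpr1-5, the other THO double mutant, IPS1 differed by -0.85 (adjusted p = 0.0313), SPX1 by -1.18 (adjusted p = 0.000254) and PHO2 by 1.44 (adjusted p = 1.72e-05) in the same edgeR fit. PHO2 in pho1-7 hpr1-5 was at 61.7 and 65.7 CPM and SPX1 at 42.5 and 43.7 CPM, both nearer to pho1-7 than pho1-7 tex1-4 was.

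**Figure D2:**
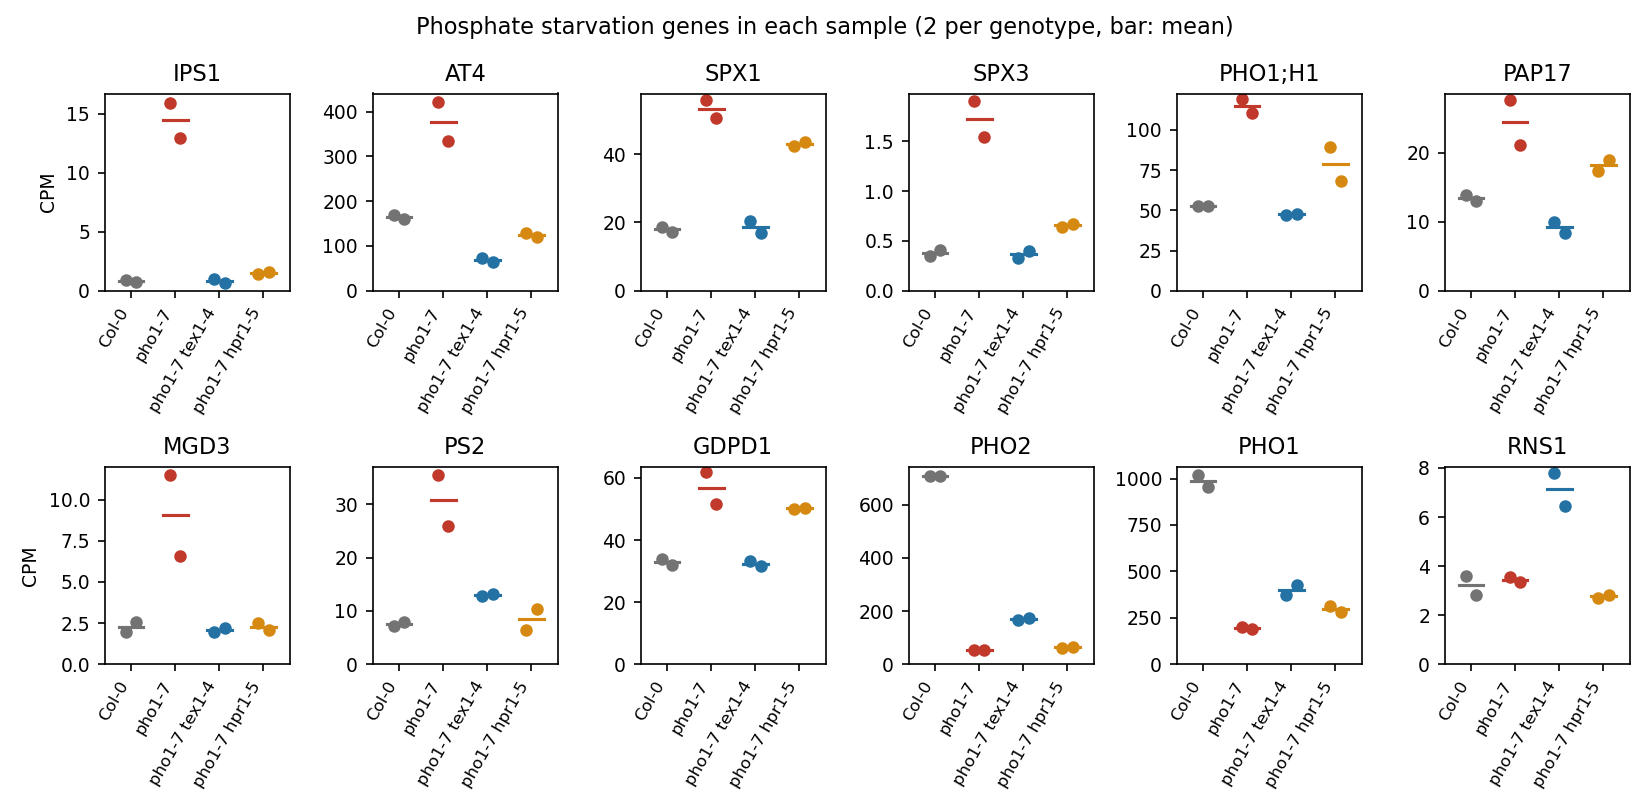
CPM (vertical axis, from 0) of 12 phosphate starvation genes in each of the 8 pot libraries, with 2 points per genotype and a bar at their mean. For IPS1, AT4, SPX1, SPX3, PHO1;H1, PAP17, MGD3, PS2 and GDPD1 both pho1-7 points lie above both pho1-7 tex1-4 points, while for PHO2, PHO1 and RNS1 they lie below.

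The 4 largest falls at 5 CPM or more were of genes with little or no signal in Col-0 and their highest level in pho1-7. RL3, a gene for a small MYB-related protein, was at 11 and 14.3 CPM in pho1-7, 0.0175 and 0.0807 CPM in pho1-7 tex1-4 and 0.0847 and 0.301 CPM in Col-0 (log2 change -7.73, standard error 0.538, adjusted p = 0.000149). Its reads numbered 668 and 925 in pho1-7 and 1 and 8 in the double mutant. AT2G34210, for an Spt5-like transcription elongation factor, was at 9.55 and 9.46 CPM in pho1-7, 0.333 and 0.585 CPM in pho1-7 tex1-4, 0.0988 and 0.0753 CPM in Col-0 and 5.48 and 6.42 CPM in pho1-7 hpr1-5 (log2 change -4.28, standard error 0.211, adjusted p = 5.00e-05). The thioredoxin-like gene AT2G30540 (-4.56 on the log2 scale) and the non-coding RNA AT5G53048 (-4.94) had the same order, with pho1-7 highest and pho1-7 hpr1-5 between pho1-7 and pho1-7 tex1-4.

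BGLU34 fell in a different way. This gene for a myrosinase of roots, an enzyme that splits glucosinolates, was at 153 and 139 CPM in pho1-7, 135 and 129 CPM in Col-0 and 136 and 138 CPM in pho1-7 hpr1-5, but only at 13.4 and 14.6 CPM in pho1-7 tex1-4 (log2 change -3.36, standard error 0.0756, adjusted p = 1.58e-06). The double mutant stood alone below the other 3 genotypes. On plates, where plants had a functional PHO1, BGLU34 was also lower in tex1-4 than in Col-0 (log2 change -4.44, adjusted p = 0.000732). The lipid transfer protein gene AT3G22570 fell from 19.8 and 18.0 to 2.93 and 3.29 CPM in pots (-2.58 on the log2 scale) and by a like amount on plates (-2.73). A pair of enzyme genes, AT3G02100 of the UDP-glycosyltransferases (-2.87) and AT1G52790 of the 2-oxoglutarate-dependent oxygenases (-2.58), were likewise low in pho1-7 hpr1-5, at 2.27 and 2.09 and at 4.93 and 5.03 CPM. RD26, a NAC transcription factor gene of drought and abscisic acid responses, was at 29.3 and 23.3 CPM in pho1-7, 3.79 and 3.1 CPM in pho1-7 tex1-4 and 6.33 and 7.5 CPM in Col-0 (log2 change -2.93, standard error 0.157, adjusted p = 5.00e-05). TAT3, a jasmonate-responsive aminotransferase gene, fell from 5.57 and 5.28 to 0.614 and 0.898 CPM (-2.79).

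Among the 12 largest rises, 3 were of genes for defensin-like peptides, small cysteine-rich secreted proteins. AT1G34047 was at 7.97 and 5.46 CPM in pho1-7 and 164 and 86.8 CPM in pho1-7 tex1-4 (log2 change 4.24, standard error 0.488, adjusted p = 0.00103), and AT2G36255 at 23.0 and 17.5 and 207 and 123 CPM (log2 change 3.04, standard error 0.301, adjusted p = 0.000577). Here pho1-7 was the genotype that stood apart, since Col-0 had 84.0 and 161 CPM of the first and 165 and 233 CPM of the second. AT4G11393 rose from 11.6 and 6.99 to 52.1 and 35.6 CPM (2.26 on the log2 scale). Of all 17 defensin genes tested, 6 rose, 5 of them by over 2-fold (29.4%, background 2.13%), and 5 fell, a number that was 3 without pho1-7 replicate 2 and 2 without pho1-7 tex1-4 replicate 2. How the counting treated reads shared by near-identical copies is not given in the sources used here, which leaves members of such families uncertain.

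In another group, both double mutants were above Col-0 and pho1-7. AT3G62455 was at 1.39 and 1.93 CPM in pho1-7, 12.4 and 13.1 in pho1-7 tex1-4, 1.65 and 1.22 in Col-0 and 10.4 and 10.5 in pho1-7 hpr1-5 (log2 change 2.96, standard error 0.168, adjusted p = 6.33e-05). Its neighbour in name, AT3G62460, went from 2.55 and 3.58 to 14.7 and 13.9 CPM (2.24). AT5G07380 (2.36), the hydroxyproline-rich glycoprotein gene AT1G11070 (2.34) and AT5G59770, related to protein-tyrosine phosphatases (2.16), fell into the same order, both double mutants above both other genotypes. The non-coding RNA AT4G04223 rose from 2.03 and 1.39 to 12.5 and 10.4 CPM (2.76) and the MuDR transposase gene AT1G49920 from 1.14 and 1.47 to 5.05 and 5.53 CPM (2.04), both lower in pho1-7 hpr1-5. MRD1 was at 3.07 and 15.5 CPM in pho1-7, with the 2 replicates far apart, and at 44.8 and 45.1 CPM in pho1-7 tex1-4 (log2 change 2.29, standard error 0.519, adjusted p = 0.0123); without pho1-7 replicate 1 its log2 change was 1.56 and without replicate 2 it was 3.88. DIN11, a dark-inducible oxygenase gene, rose from 1.62 and 1.42 to 4.26 and 8.58 CPM (2.11).

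Other mineral nutrition genes moved in both directions. Of 22 iron uptake and coumarin genes tested, 11 rose and 2 fell, and of 10 zinc transport genes 6 rose and 1 fell. NAS4, for an enzyme that makes the metal chelator nicotianamine, was at 12.6 and 15.3 CPM in pho1-7 and 46.9 and 36.5 CPM in pho1-7 tex1-4, with Col-0 at 38.4 and 41.0 CPM (log2 change 1.60, standard error 0.172, adjusted p = 0.000776). MYB72, a transcription factor gene of iron deficiency, rose from 0.959 and 0.911 to 1.81 and 2.60 CPM (1.27), and BGLU42, which acts on coumarins, by 0.46. The uptake pair IRT1, the iron transporter, and FRO2, the ferric reductase, rose by 0.77 and 0.71, whereas FIT, the regulator of both, was at -0.04 and did not pass (adjusted p = 0.863). The zinc transporter gene ZIP4 went from 19.8 and 17.9 to 45.6 and 38.2 CPM, with Col-0 at 43.4 and 50.4 CPM (log2 change 1.17, standard error 0.126, adjusted p = 0.000786). HMA2, a zinc pump of the xylem route, rose from 23.8 and 24.8 to 50.3 and 39.3 CPM (0.90). Fallen iron genes numbered 1 without either pho1-7 replicate, and fallen zinc genes 0 without pho1-7 replicate 1 or pho1-7 tex1-4 replicate 1. For NAS4, ZIP4 and HMA2 the pho1-7 samples were the low ones among pho1-7, pho1-7 tex1-4 and Col-0.

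In the nitrate and ammonium list, 3 of 19 tested rose (15.8%, background 24.5%) and 6 fell (31.6%, background 21.9%). BT2, a scaffold protein gene that responds to nitrate, was at 165 and 154 CPM in pho1-7, 471 and 425 CPM in pho1-7 tex1-4, 88.1 and 71.3 CPM in Col-0 and 651 and 624 CPM in pho1-7 hpr1-5 (log2 change 1.51, standard error 0.106, adjusted p = 0.000151). NRT1.8, a transporter gene that retrieves nitrate from the xylem, fell from 33.5 and 21.3 to 11 and 10.1 CPM (-1.36), and the nitrate reductase gene NIA1 from 344 and 364 to 162 and 170.3 CPM (-1.08), both groups without overlap. UPM1, whose product acts in making the sirohaem cofactor of nitrite reductase, also fell (-0.75). Without pho1-7 replicate 1, and likewise without pho1-7 tex1-4 replicate 1, 3 members of this list fell, and 1 rose without either replicate 2. The sulfur list had 2 of 12 up and 6 down; SDI1, a repressor gene of sulfur deficiency, went from 3.69 and 3.3 to 1.21 and 1.27 CPM (-1.47) and the sulfate assimilation gene APR1 from 167 and 146 to 96.2 and 108 CPM (-0.60), while LSU4 rose (1.03). Leaving out the same libraries in turn left 3 fallen sulfur genes each time, and 1 sulfur gene rose without pho1-7 tex1-4 replicate 2.

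Genes of glucosinolate synthesis fell, and the families that make and modify specialised metabolites leaned the same way. Of 19 glucosinolate genes tested, 11 fell (57.9%, background 21.9%) and 1 rose, with a list median of -0.57. CYP79B3 and CYP79B2, near-copies that turn tryptophan into the first intermediate of indole glucosinolates, went from 241 and 229 to 101 and 103 CPM (log2 change -1.19, standard error 0.0639, adjusted p = 5.00e-05) and from 206 and 202 to 115 and 116 CPM (log2 change -0.80, standard error 0.0661, adjusted p = 0.000288). The next enzymes of the chain, CYP83B1 (-0.63) and UGT74B1 (-0.79), fell as well. No glucosinolate gene rose without either pho1-7 replicate or pho1-7 tex1-4 replicate 1 (0 in each case). The regulators MYB34 and MYB51 were at 0.02 and -0.37 and did not pass. Of 183 cytochrome P450 genes, 79 fell (43.2%) and 11 rose, and 25 fell by over 2-fold (13.7%, background 2.88%), among them CYP93D1 (-1.70). The UDP-glycosyltransferases had 30 of 72 down (41.7%) and 5 up. Without pho1-7 replicate 1, 52 P450 genes fell and 20 UDP-glycosyltransferase genes did. Without pho1-7 tex1-4 replicate 1 the numbers were 57 and 22. Risen P450 genes numbered 7 without either pho1-7 replicate or pho1-7 tex1-4 replicate 2, and risen UDP-glycosyltransferases 3 without pho1-7 tex1-4 replicate 1.

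Immune genes also leaned towards lower levels. Of 140 NBS-LRR genes, which code for intracellular immune receptors, 75 fell (53.6%) and 11 rose, with a median log2 change of -0.35. The log2 changes of 3 of them were -2.14 for AT5G45240, -0.75 for AT4G19510 and 1.53 for AT1G50180. AT1G50180 is also the next gene, on the same strand, after SIRB, whose 3' extension was raised. Such neighbours are described below with the 3' extensions. The number that fell was 47 without pho1-7 replicate 1. Of 61 WRKY transcription factor genes 21 fell (34.4%, background 21.9%) and 6 rose (9.84%, background 24.5%). In the salicylic acid list 9 of 22 fell and none rose, while 13 did not pass. EDS5, the salicylic acid exporter gene, went from 32.1 and 29.2 to 19.7 and 18.1 CPM (-0.68), the transcription factor gene SARD1 from 18 and 9.74 to 4.96 and 4.32 CPM (-1.55) and the regulator gene PAD4 from 53.9 and 41.2 to 29.5 and 30.7 CPM (-0.64). The defining marker PR1 was at 2.99 and 0 CPM and 0 and 0.121 CPM and did not pass (adjusted p = 0.135). Without pho1-7 replicate 1, and likewise without pho1-7 tex1-4 replicate 2, 5 members fell and 1 rose.

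The jasmonate list had 8 of 21 down and 1 up. The biosynthesis gene OPR3 fell from 25.0 and 23.0 to 16.1 and 15.7 CPM (-0.58) and the repressor gene JAZ2 from 58.9 and 47.6 to 34.4 and 36.7 CPM (-0.56), while ORA59, an ethylene and jasmonate transcription factor gene, rose from 2.69 and 2.48 to 6.03 and 5.87 CPM (log2 change 1.22, standard error 0.110, adjusted p = 0.000406). Col-0 had 8.73 and 8.06 CPM of ORA59. Leaving out pho1-7 replicate 1, pho1-7 tex1-4 replicate 1 or pho1-7 tex1-4 replicate 2 left 3, 4 and 5 fallen members. The flavonoid list had 9 of 14 down and none up, but its members were low throughout: CHS, the entry enzyme, was at 2.08 and 1.34 CPM in pho1-7 and 0.0526 and 0.666 CPM in pho1-7 tex1-4, and DFR at 2.69 and 1.40 and 0.0351 and 0.545 CPM. For both genes the fall was deepest in replicate 1 of pho1-7 tex1-4, which was also the library low in green tissue markers. Only 1 flavonoid gene fell without pho1-7 replicate 1, and without pho1-7 tex1-4 replicate 1 the number was 5.

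Genes of protein synthesis and cell division were higher, by small amounts. The ribosomal protein, histone and heat shock families were matched on words of the product. They can therefore hold genes for other proteins whose product name shares the word. Of 323 ribosomal protein genes, 213 rose (65.9%, background 24.5%) and 10 fell, with a median log2 change of 0.28; only 4 rose by over 2-fold. AT3G04230 rose by 0.84 and AT2G09990 by 0.68, both coding for ribosomal proteins. The count depended on the libraries: without pho1-7 replicate 1 it was 104, and without pho1-7 tex1-4 replicate 1 it was 99. Of 98 histone genes 51 rose and 9 fell (median 0.23), with 5 down without pho1-7 tex1-4 replicate 1, and HTB1, for histone H2B, rose by 0.85. In the meristem and cell division marker list, 10 of 11 rose (90.9%), with PLT1 the exception (0.20, adjusted p = 0.482). CDKB1;1, a kinase gene of the cell cycle, went from 17.8 and 20.1 to 27.5 and 27.3 CPM (log2 change 0.55, standard error 0.0783, adjusted p = 0.00219), and PCNA1, the sliding clamp of DNA replication, from 21.5 and 25.0 to 30.5 and 31.5 CPM (0.43). The 11 markers summed to 258 and 295 CPM in pho1-7 and to 349.5 and 351 CPM in pho1-7 tex1-4. Their part in the ribosomal protein and histone counts was not tested. Of 99 heat shock protein genes, 42 rose and 8 fell (27 and 4 without pho1-7 replicate 1), with Hsp70-2 at 0.62.

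Hormone lists differed in direction. In the auxin list 8 of 20 rose (40%, background 24.5%) and 1 fell (5%, background 21.9%). Among those that rose was the early response gene IAA1, from 8.73 and 8.64 to 16.3 and 13.5 CPM (0.80). In the cytokinin list 7 of 12 fell and 1 rose, the fallen ones including the response regulator genes ARR8 (-0.35) and ARR5, which went from 48.8 and 40.9 to 27.2 and 22.3 CPM (-0.84). That number was 3 without pho1-7 replicate 1, and without either pho1-7 tex1-4 replicate it was 4. The ethylene list had 8 of 15 up and 2 down. ARGOS, which lowers ethylene sensitivity, rose from 6.64 and 6.70 to 16.9 and 15.6 CPM (log2 change 1.3, standard error 0.101, adjusted p = 0.000228) and EBF1, for an F-box protein that removes the ethylene factor EIN3, from 204 and 193 to 331 and 343 CPM (log2 change 0.78, standard error 0.0627, adjusted p = 0.000250). RTE1, a regulator of the ethylene receptor, was at 10.7 and 10.2 CPM in pho1-7 and 9.63 and 9.81 CPM in pho1-7 tex1-4. It did not pass edgeR's test (log2 change -0.08, standard error 0.0778, adjusted p = 0.429). The study's discussion, citing earlier work, gives RTE1 expression as low in hpr1 and tex1 mutants. Only 5 ethylene genes rose without pho1-7 replicate 1, and the 2 that fell were 0 without it or without pho1-7 tex1-4 replicate 1 and 1 without pho1-7 tex1-4 replicate 2. In the abscisic acid list 6 of 18 fell (33.3%, background 21.9%) and 2 rose (11.1%, background 24.5%). The dehydrin gene LTI30 went from 90.4 and 80.4 to 24.3 and 24.4 CPM (log2 change -1.79, standard error 0.0822, adjusted p = 3.59e-05 with edgeR), below Col-0 at 37.5 and 33.1 CPM. The transcription factor gene ABF3 went from 119.9 and 110.2 to 67.2 and 62.7 CPM (-0.81). Without pho1-7 replicate 2, 10 members of this list fell, and without any 1 of the 4 libraries 1 rose. Fallen auxin genes numbered 0 without pho1-7 replicate 1 or either pho1-7 tex1-4 replicate, and 2 fell without pho1-7 replicate 2.

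Small RNA genes included several that rose. TAS1C, a non-coding precursor of trans-acting siRNAs, was at 7.47 and 8.55 CPM in pho1-7, 26.3 and 24.9 CPM in pho1-7 tex1-4, 6.21 and 6.10 CPM in Col-0 and 11.3 and 12.6 CPM in pho1-7 hpr1-5 (log2 change 1.70, standard error 0.0922, adjusted p = 5.00e-05). The double mutant with tex1-4 was the highest of the 4 genotypes. Its relatives TAS1B (1.15), TAS2 (1.13) and TAS1A (1.05) rose too, as did HTT2, whose mRNA these siRNAs target, from 9.22 and 8.12 to 15.2 and 16.7 CPM (0.90). Genes of the pathway that makes double-stranded precursors, SGS3 (0.61) and RDR6 (0.34), were higher, and DCL1, which cuts microRNA precursors, fell from 75.0 and 75.9 to 47.1 and 52.7 CPM (log2 change -0.58, standard error 0.0611, adjusted p = 0.000750). In all, 9 of 17 tested rose (52.9%) and 4 fell, the latter being 1 without pho1-7 tex1-4 replicate 1 and 2 without pho1-7 tex1-4 replicate 2. TAS3 rose by 0.22 and its target ARF3 was at 0.05, not past the test.

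In the flowering list 5 of 7 fell. SOC1 went from 38.1 and 38.5 to 26.4 and 25.6 CPM (-0.54), MAF2 from 61.1 and 65.8 to 46.5 and 45.6 CPM (-0.44) and FLM from 69.0 and 68.0 to 47.8 and 41.7 CPM (-0.60). FLC, the main repressor of flowering, had 21 and 80 reads in pho1-7 and 0 and 1 in pho1-7 tex1-4. The THO/TREX list itself changed little beyond TEX1: MOS11, an export factor gene, fell from 172 and 190.0 to 128 and 116 CPM (-0.55), UAP56B, for an RNA helicase, rose (0.42), as did THO5B (0.20; adjusted p = 0.0425 with edgeR and not past the threshold with DESeq2). HPR1 (0.02) and THO2 (0.06) were among the 8 of 12 members that did not pass. The number of risen members was 4 without pho1-7 replicate 2 and 1 without any other library. Aquaporins, with 2 of 18 up and none down, and xylem markers, with 1 of 13 up, lay below the background in both directions. No xylem marker rose without either replicate 2 (0 of 13), and 1 aquaporin fell without pho1-7 replicate 2. The remaining lists were of suberin, clock, low oxygen, heat shock, sugar and ferritin genes. In the low oxygen list 5 of 11 fell (45.5%, background 21.9%) and 3 rose (27.3%, background 24.5%). Clock genes had 5 of 16 down (31.25%) and 1 up (6.25%), and suberin genes 4 of 14 down (28.6%) and 0 up. Heat shock list genes had 4 of 12 up (33.3%) and 0 down. Sugar genes had 3 of 12 up (25%) and 1 down (8.33%), and ferritin genes 2 of 7 up (28.6%) and 1 down (14.3%). Smaller counts in these lists moved without single libraries. Fallen suberin genes, 4 in all, numbered 0 without pho1-7 replicate 1 or pho1-7 tex1-4 replicate 1 and 7 without pho1-7 replicate 2, and heat shock list members that rose, also 4, numbered 1 without pho1-7 replicate 1 and 2 without pho1-7 replicate 2 or pho1-7 tex1-4 replicate 1.

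**Figure D3:**
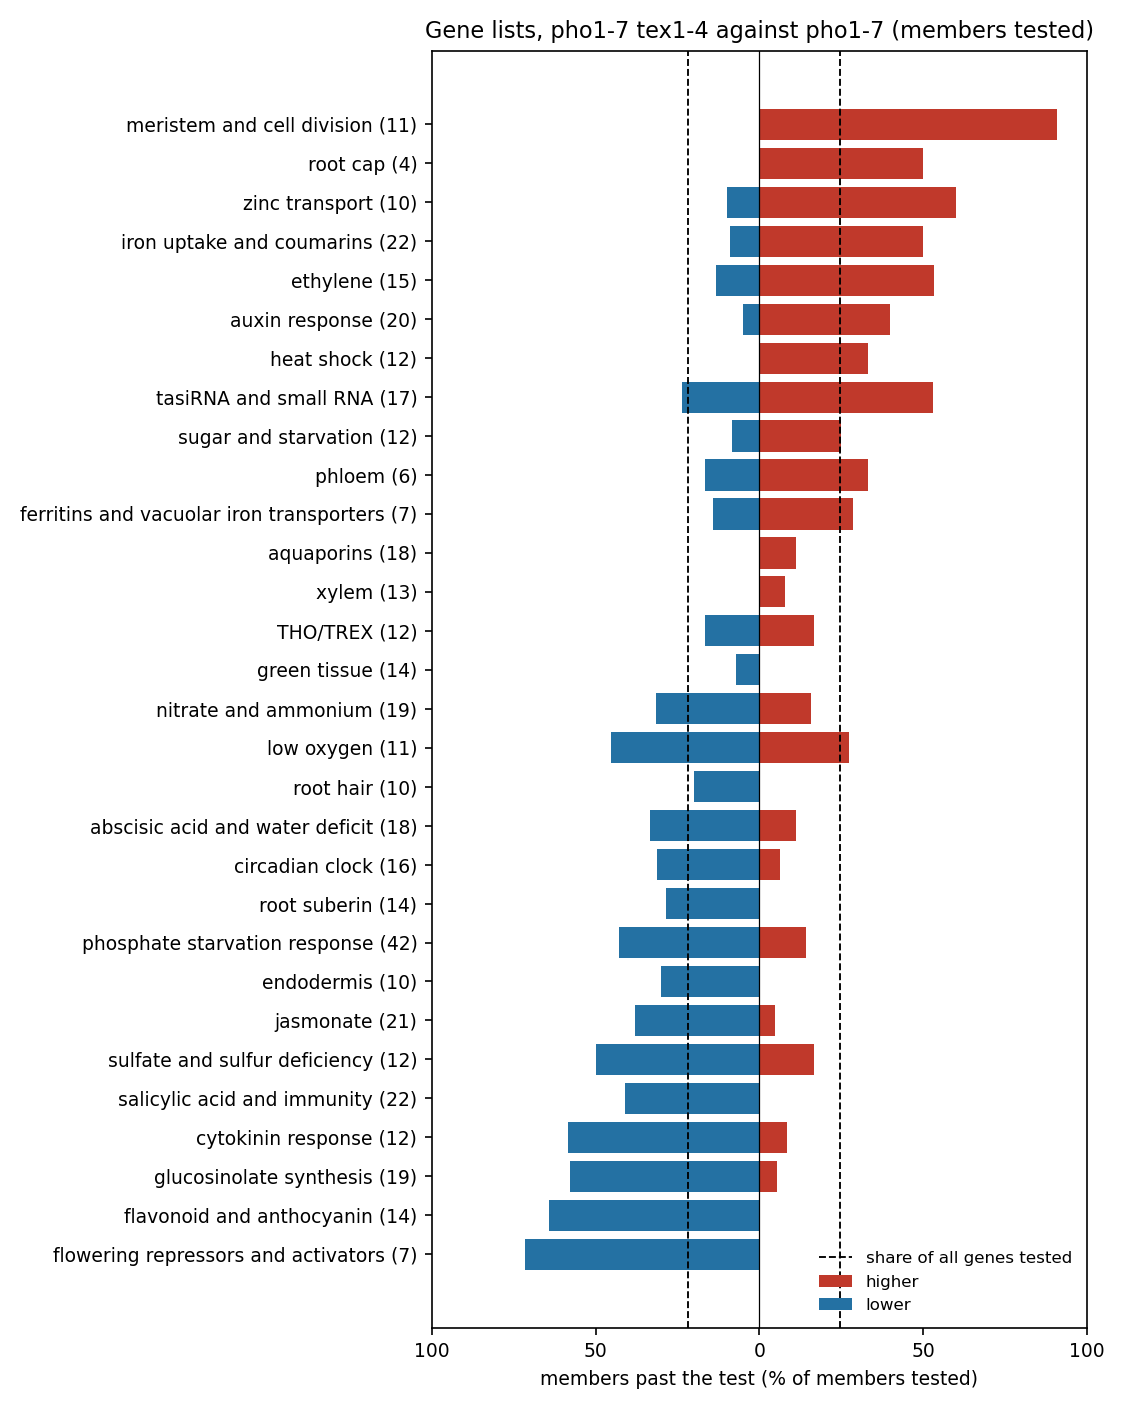
Share of the tested members of each list that were higher (red, to the right) or lower (blue, to the left) in pho1-7 tex1-4 at an adjusted p under 0.1, with the number tested in brackets. Dashed lines mark the shares over all genes tested, 24.5% higher and 21.9% lower; glucosinolate genes (57.9% lower) and cell division markers (90.9% higher) lie well beyond them.

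**Figure D4:**
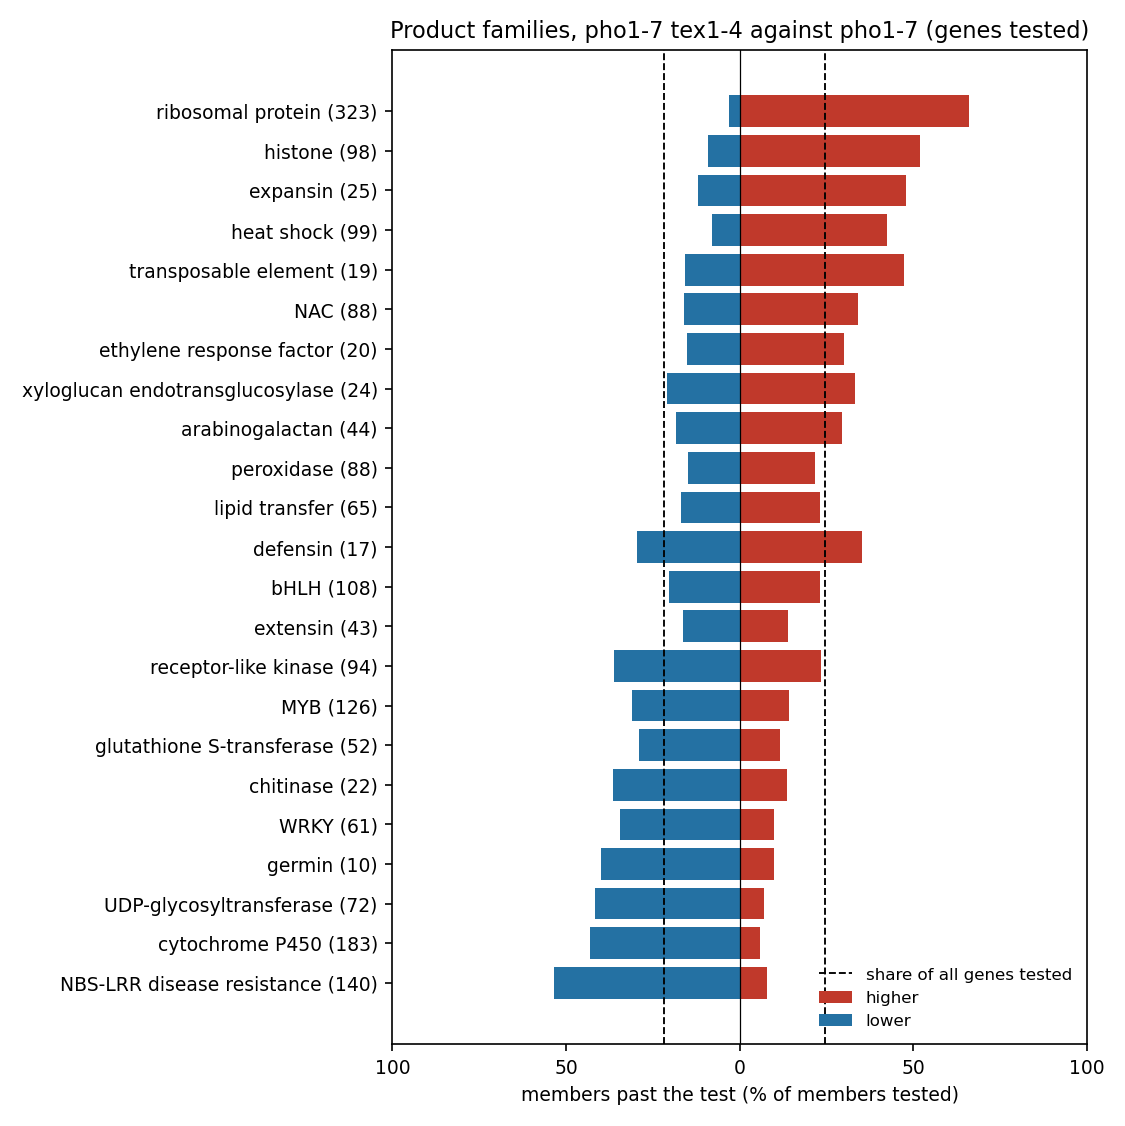
Share of the tested genes of each product family that were higher (red) or lower (blue) in pho1-7 tex1-4 at an adjusted p under 0.1, for families with at least 10 genes tested. Dashed lines are the shares over all genes tested; ribosomal proteins stand at 65.9% higher and NBS-LRR genes at 53.6% lower.

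By class, 416 of 21042 protein-coding genes rose by over 2-fold (1.98%) and 557 fell (2.65%). Among 378 pseudogenes 30 rose (7.94%) and 35 fell (9.26%), and among 307 long non-coding RNAs 18 rose (5.86%) and 22 fell (7.17%). Without a minimum fold, 18.3% of pseudogenes were higher and 24.3% lower. For long non-coding RNAs these shares were 17.3% and 28.7%, beside 24.5% and 21.9% of all genes tested. On chromosomes 1 to 5 the share that rose lay between 1.88% and 2.45% and the share that fell between 2.76% and 3.09%, so no chromosome stood far from the others.

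The study also counted reads on 3' extensions, stretches past the annotated ends of genes. The next gene downstream of each was read as well. It was the first gene lying wholly past the annotated end, so genes overlapping that end were passed over. Of 1453 extensions tested, 68 had a ratio of extension to gene-body reads raised over 2-fold in pho1-7 tex1-4, and 63 of these had a tested neighbour. On the same strand, 22 of 46 neighbours rose (47.8%) and 10 rose by over 2-fold (21.7%, background 2.13%), while 7 fell. On the opposite strand 6 of 17 rose, none by over 2-fold, and 4 fell. The named examples followed extensions of MYB59, BPS2 and AT4G01040. AT5G59770, after MYB59, rose as given above; MPK12, a MAP kinase gene after BPS2, was at 1.90 and 2.30 CPM in pho1-7 and 7.49 and 7.55 CPM in pho1-7 tex1-4 (log2 change 1.86, standard error 0.133, adjusted p = 0.000164). AT4G01060, a MYB-related gene after AT4G01040, fell instead, from 4.76 and 4.37 to 0.508 and 0.343 CPM (-3.44). It lay over 1000 bases away. With neighbours limited to 1000 bases, 10 of 35 on the same strand rose by over 2-fold and 0 fell by that much. Without a minimum fold, 19 of these neighbours rose and 3 fell. Whether the reads on a risen neighbour began at its own start or upstream cannot be told apart in gene counts, and whether the counting used strand is not given in the sources used here.

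**Figure D5:**
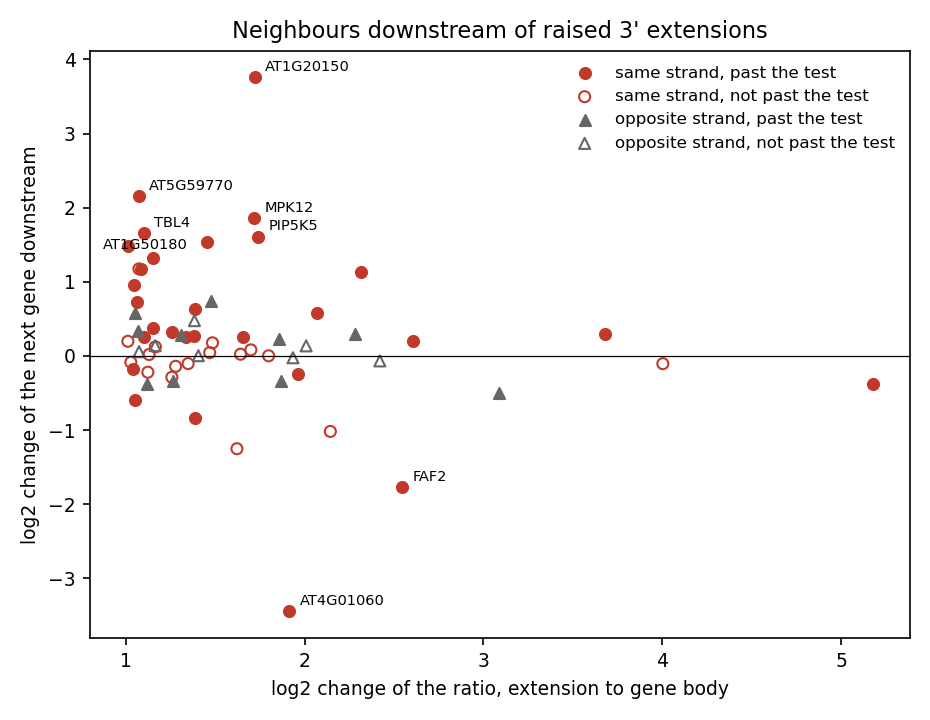
Log2 change of the next gene downstream (vertical axis) against the log2 change of the ratio of extension to gene body (horizontal axis) for the 63 raised extensions with a tested neighbour. Circles are neighbours on the same strand and triangles on the opposite strand, filled where the neighbour passed the test; AT1G20150 is the highest at 3.76 and AT4G01060 the lowest at -3.44.

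Plate-grown roots gave a second tex1-4 contrast that shares no library with this one, in plants with a functional PHO1. There, 507 of 21772 genes rose by over 2-fold (2.33%) and 672 fell (3.09%), and without a minimum fold 17.8% were higher and 19.3% lower. Of the 410 genes that rose over 2-fold in pots and were tested in both, 169 also rose on plates, which is 41.2% of the pot list and 39.7% of the plate list. Of the 502 that fell, 178 also fell, 35.5% of the pot list and 28.4% of the plate list. Across the 21264 genes tested in both, the log2 changes had a Pearson correlation of 0.57 and a Spearman correlation of 0.63, given as a description since genes are not independent. On plates 7 of 38 phosphate starvation genes rose and 7 fell, and IPS1 had a log2 change of 0.26 (adjusted p = 0.645). The test of the difference between the contrasts gave -4.39 for IPS1 (standard error 0.474, adjusted p = 0.00120), -2.55 for AT4 (adjusted p = 0.000966), -1.95 for SPX1 (adjusted p = 0.00278) and 1.46 for PHO2 (adjusted p = 0.000320). CYP79B3 was lower in both (-1.02 on plates). On plates taken alone, 58 of 131 NBS-LRR and 77 of 173 P450 genes fell. How many of these also fell in pots was not counted. Other groups went another way there. Of 15 defensin genes 1 rose and 8 fell, and of 9 zinc genes 2 rose and 4 fell. Of 11 low oxygen genes 8 rose and 0 fell. Glucosinolate genes still leaned lower on plates, where 9 of 19 fell and 6 rose (median log2 change -0.35). Over all genes, the contrasts differed by over 2-fold upward for 162 and downward for 249 (0.715% and 1.1% of 22667). The upward number was 84 without pho1-7 replicate 1 and 101 without pho1-7 replicate 2 or either pho1-7 tex1-4 replicate, and the downward number 126 without pho1-7 replicate 1. Background genotype, substrate, age and library type differ together between pots and plates and cannot be told apart.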

How the data were processed

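Per the labels and the study's methods, the authors sequenced stranded poly(A) libraries of roots, aligned reads with HISAT2 to TAIR10 (release TAIR10.31 in the methods) and deposited HTSeq counts per gene and per 3' extension, not normalized; tool versions and the strand setting of the counting are not given in the sources used here. Summary rows, 17.3% to 19.6% of counts in the 4 libraries, were dropped. The 8 pot libraries were fitted together in edgeR 4.0.16 (R 4.3.3) with filtering by filterByExpr, TMM scaling and glmQLFTest, which borrows its spread across genes and genotypes since each has 2 libraries; DESeq2 1.42.0 was an alternative. The test was checked on simulated data. Plates and the pots-plates difference were fitted the same way. Extension ratios were tested with a term for each sample, on extensions with at least 10 reads. List members were matched by name to a TAIR10.1 reference (32835 of 33602 IDs matched), which also gave neighbours and product families. Families were matched on words of the product, and wider patterns were tried first. Genes named are TEX1, PHO1, RTE1, the 12 largest rises and falls called with at least 5 CPM in the higher genotype and no overlap, up to 4 members of a list, 3 of a family and 3 downstream neighbours by adjusted p; others were chosen after their values were seen. Members and lists were chosen with earlier results of these data known. Other settings were RLE factors, filters, the 4 libraries alone, organelle genes left out, a threshold of 0.05, a replicate block and leaving out each library. Promoter and protein sequences were not used here.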

Additional observations from a re-analysis of the deposited data

Results flagged for a closer look

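Of 122 genes given with a log2 change, 53 had an effect of tex1-4 in pots, within pho1-7, that differed from its effect on plates, against Col-0, by a test of the difference itself in edgeR with Benjamini-Hochberg adjustment. Most of the 122 genes were named for their change or adjusted p in pots, which favours a difference from plates. The share over all genes without a minimum fold was not counted, so the 53 have no background here. Differences are given on the log2 scale as pots minus plates. Genotype background, substrate, age and library type differ together between both experiments and cannot be told apart.

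Genes of the phosphate response, many of which were named above, are given first. IPS1 differed by -4.39, having fallen in pots (-4.13) and not passed on plates (0.26), AT4 by -2.55, SPX1 by -1.95, SPX3 by -2.38, PHO1;H1 by -1.68, PS2 by -2.22 and PAP17 by -1.33. PEPC1, with too few reads on plates to be tested there, differed by -7.55. The lipid remodelling genes MGD2, PLDP2, SQD1 and GDPD1, the last for a glycerophosphodiesterase, differed by -1.19, -1.17, -0.76 and -0.65. PHO2 differed by 1.46 and PHO1 by 1.29, with 1.06 in pots and -0.24 on plates, and TEX1, lowered in both, by -1.36.

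The genes whose highest pot level was in pho1-7 also differed: RL3 by -7.85, AT2G34210 by -6.30, AT2G30540 by -4.12 and AT5G53048, not tested on plates alone, by -5.37. AT2G34210 changed in opposite directions, with -4.28 in pots and 2.00 on plates. Stress and hormone genes with lower changes in pots were TAT3 (-3.46), RD26 (-2.11), SARD1 (-1.85), LTI30 (-1.61), ARR5 (-0.99), JAZ2 (-0.68), ABF3 (-0.56) and OPR3 (-0.53). Nutrient and metabolic genes with the same sign were NRT1.8 (-1.93), SDI1 (-1.31), NIA1 (-1.25), UGT74B1 (-0.76) and UPM1 (-0.68), beside AT4G01060 (-3.81), EXLA1 (-1.06) and EXLB1 (-0.87).

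Among genes that rose in pots, the defensin-like genes AT2G36255 and AT1G34047 differed by 5.77 and 4.81, and AT2G36255 fell on plates (-2.74). MRD1 differed by -6.73: on plates it rose by 9.01 on the log2 scale and in pots by 2.29, with pho1-7 replicates at 3.07 and 15.5 CPM. Higher changes in pots than on plates were also found for DIN11 (3.59), AT5G59770 (1.98), AT3G62460 (1.61), ORA59 (1.54), AT1G11070 (1.26), AT3G62455 (1.07) and ZIP4 (1.07). The same held for TAS1B (0.78), AT5G07380 (0.69), ARGOS (0.68), TAS1C (0.64), EXPA15 (0.61), Hsp70-2 (0.46) and EBF1 (0.30). MYB34 also differed upward (0.39), but it did not pass in pots (0.02) and was lower on plates (-0.385). No group had the 4 samples that a check for a single distant sample needs.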

How the results depend on the processing

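Of the 188 genes picked by the naming rules, 156 were tested when 5 CPM in 2 samples were required and 187 with the 4 libraries alone. None changed direction in any of the 12 alternatives that tested it. These gave 2172 values on the same side of the threshold and 51 that no longer passed, mostly in fits that left out 1 library. Genes chosen after their values were seen were not part of this check. Requiring 5 CPM in 2 samples, which tests fewer genes, left 115 called higher and 255 called lower, and 97 and 153 genes with a difference between pots and plates. At an adjusted p under 0.05, 99 genes differed upward. Leaving out 1 library at a time gave 423 to 505 genes called higher and 433 to 795 called lower, 3314 to 5077 and 3037 to 4655 without a minimum fold, and 84 to 101 and 126 to 241 for the difference between pots and plates. Of the same-strand neighbours within 1000 bases of a raised extension, 3 fell, in place of 7. The cause of these shifts was not tested.

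Other settings stayed within 1.5 times of the counts reported for all genes: DESeq2 called 368 higher and 589 lower, RLE size factors 452 and 658, and the 4 libraries alone 417 and 635. RLE factors moved the median of all genes by -0.02 on the log2 scale against TMM. With the replicate number as a block, 462 genes were called higher and 648 lower; same-numbered samples did not deviate together (correlation of deviations -0.0876 over 21972 genes), so the numbers were not taken as pairs.

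Smaller counts were less stable, with 120 list values and 66 family values moving by over 1.5 times. The flavonoid list had no fallen member once 5 CPM were required, and the jasmonate list 5. Family word patterns were settled after counts had been seen. Wider patterns, chosen after seeing the data, gave 53 of 144 heat shock genes up, 49 of 136 UDP-glycosyltransferases down and 44 of 130 receptor-like kinases down. The 2 libraries per genotype limit the precision.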

Other observations

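Further families gave values not set out above. Of 88 NAC transcription factor genes, 30 rose and 14 fell, with NAC13, a regulator of mitochondrial stress genes, up by 1.03 on the log2 scale beside the fall of RD26; without pho1-7 replicate 1, 9 fell. Of 19 transposable element genes tested, 9 rose and 3 fell, 4 of them rising by over 2-fold, and 1 fell without pho1-7 replicate 2 and 0 without pho1-7 tex1-4 replicate 2. Of 25 expansin genes, whose products loosen cell walls, 12 rose and 3 fell; EXPA15 rose by 0.59, while the expansin-like genes EXLA1 and EXLB1 were at -1.65 and -1.04. Among 94 receptor-like kinase genes 22 rose (14 without pho1-7 tex1-4 replicate 2) and 34 fell, and CRK28 went from 41.1 and 45.5 to 95.9 and 95.4 CPM (log2 change 1.16, standard error 0.0714, adjusted p = 8.93e-05, edgeR's quasi-likelihood test). The MYB family had 18 of 126 up and 39 down, and the glutathione S-transferases, which detoxify reactive compounds, 6 of 52 up and 15 down. Risen MYB genes numbered 9 without pho1-7 tex1-4 replicate 1 and 11 without pho1-7 replicate 1 or pho1-7 tex1-4 replicate 2, risen glutathione S-transferases 3 without pho1-7 tex1-4 replicate 1, and fallen ones 9 without pho1-7 replicate 1. Of 52 miRNA genes with enough reads in these poly(A) libraries, 6 rose (11.5%, background 24.5%) and 13 fell (25%, background 21.9%). By over 2-fold, 3 rose (5.77%, background 2.13%) and 8 fell (15.4%, background 2.88%).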
